A study of Mus musculus with 12 samples.

Results

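In G1-phase mouse ESCs, 10 genes of the Notch pathway were followed: the receptors *Notch1*, *Notch2*, *Notch3* and *Notch4*, the ligands *Dll1*, *Jag1* and *Jag2*, the DNA-binding factor *Rbpj*, and the targets *Hes1* and *Hey1*. They were chosen by symbol, with earlier results of these data known, and all 10 were among the 24881 symbols of the table. All cells were R1 ESCs with the FUCCI reporters, fluorescent proteins that mark cell cycle phases, and were sorted in G1 phase before RNA extraction. The 4 groups, of 2 libraries each, were WT cells in serum, P53-/- cells in serum, WT cells in 2i and P53-/- cells in 2i, where 2i is a serum-free medium with an inhibitor of the MEK kinase, an inhibitor of the GSK3 kinase and LIF. The P53-/- cells were CRISPR/Cas9 clones picked from single cells. Of these, clones 1 and 2 went into sequencing. Which clone a library holds is not named in the table, nor whether the libraries of a group came from separate cultures. P values therefore measure the spread between these libraries, which may be technical.

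Notch signaling passes between touching cells. A ligand of the Delta or Jagged family on one cell binds a Notch receptor on its neighbor, the receptor is cut by an ADAM protease and then by γ-secretase, and the freed intracellular part joins RBPJ on DNA, where the pair switches genes such as those of the Hes and Hey repressors on. Without a receptor fragment, RBPJ holds the same genes down together with corepressors. In mouse ESCs the pathway is known mainly for its part in leaving pluripotency toward the neural lineage.

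Levels are FPKM, in which the authors divided the fragments of a gene by transcript length and by mapped fragments, so that levels can be compared between genes. Depth, estimated from the lowest values of 2628 single-transcript genes and correct only up to a factor shared by all libraries, was 5190000 to 13300000 fragments per library. *Trp53*, the targeted gene, was at 77.6 and 75.1 FPKM for WT in serum, 16.8 and 3.68 for P53-/- in serum, 26.8 and 33.7 for WT in 2i, and 7.25 and 1.88 for P53-/- in 2i, so every P53-/- library lay below every WT library. All 10 ESC markers examined (*Pou5f1*, *Sox2*, *Nanog* and others) were above 1 FPKM in each group, with sums from 3615 to 4560 FPKM. Of the lists for other cells, the trophoblast list (6 genes, mainly *Krt8* in 2i, with *Tfap2c* the highest in serum) summed to 65.8 to 128 FPKM in 2i and 10.5 to 17.2 in serum, the primitive streak list (7 genes, mainly *Gsc* in 2i, with *Eomes* the highest in serum) to 8.37 to 13.5 in 2i and 2.58 to 3.76 in serum, and the fibroblast list (8 genes) to 1.75 to 2.73 in 2i and 8.31 to 11.7 in serum, most of it *Thy1* in serum, with *Col3a1* and *Postn* listed at 0 in all libraries. The endothelial list (6 genes) summed to 31.1 to 42.3 FPKM in 2i and 18.2 to 22.6 in serum, mainly *Pecam1*, which ESCs express, while *Cdh5* was at or under 0.0589 FPKM. The neural list (8 genes) summed to 22.5 to 41.3 FPKM, mainly *Tubb3*, with *Dcx* listed at 0 in all libraries, and the primitive endoderm list (7 genes) to 1.28 to 4.36 FPKM. In WT the neural sum was 31.8 to 34.3 FPKM in 2i and 27.2 to 28.75 in serum. In P53-/- it moved the other way, with 22.5 to 27.7 in 2i and 36.3 to 41.3 in serum. The primitive endoderm sum was higher in 2i in P53-/- (1.63 to 2.32 against 1.28 to 1.45) and overlapped between cultures in WT. The trophoblast, primitive streak, fibroblast and endothelial lists moved with culture as sums in both genotypes, carried by 1 or 2 genes each, as did the genes below. The part of all these lists in those results was not tested.

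The most abundant members were *Hes1*, a transcriptional repressor, at 27.4 to 64.3 FPKM over the 8 libraries, and *Rbpj*, at 6.29 to 47.8 FPKM. *Hes1* was the higher in each 2i library and *Rbpj* in each serum library. No receptor or ligand exceeded 5.16 FPKM in a library. *Dll1* (chr17:15367354-15376872, minus strand, on GRCm38 as all positions here), a Delta ligand, was hardly detected, at 0.253 and 0.183 FPKM for P53-/- in serum, 0.0651 and 0.244 for WT in serum, 0.269 and 0.106 for P53-/- in 2i, and 0 and 0.166 for WT in 2i. The groups overlapped for *Dll1*, and a library held at most about 11 of its fragments. It was the 1 member with a mean under 0.5 FPKM and was left out of the tests, which used limma on log2(FPKM + 0.1) over 12572 genes. To be called, a gene needed both a Benjamini-Hochberg adjusted p under 0.1 and a change of over 1.5-fold. Log2 values and folds below are on the log2(FPKM + 0.1) scale, and SE is the standard error.

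**Figure D1:**
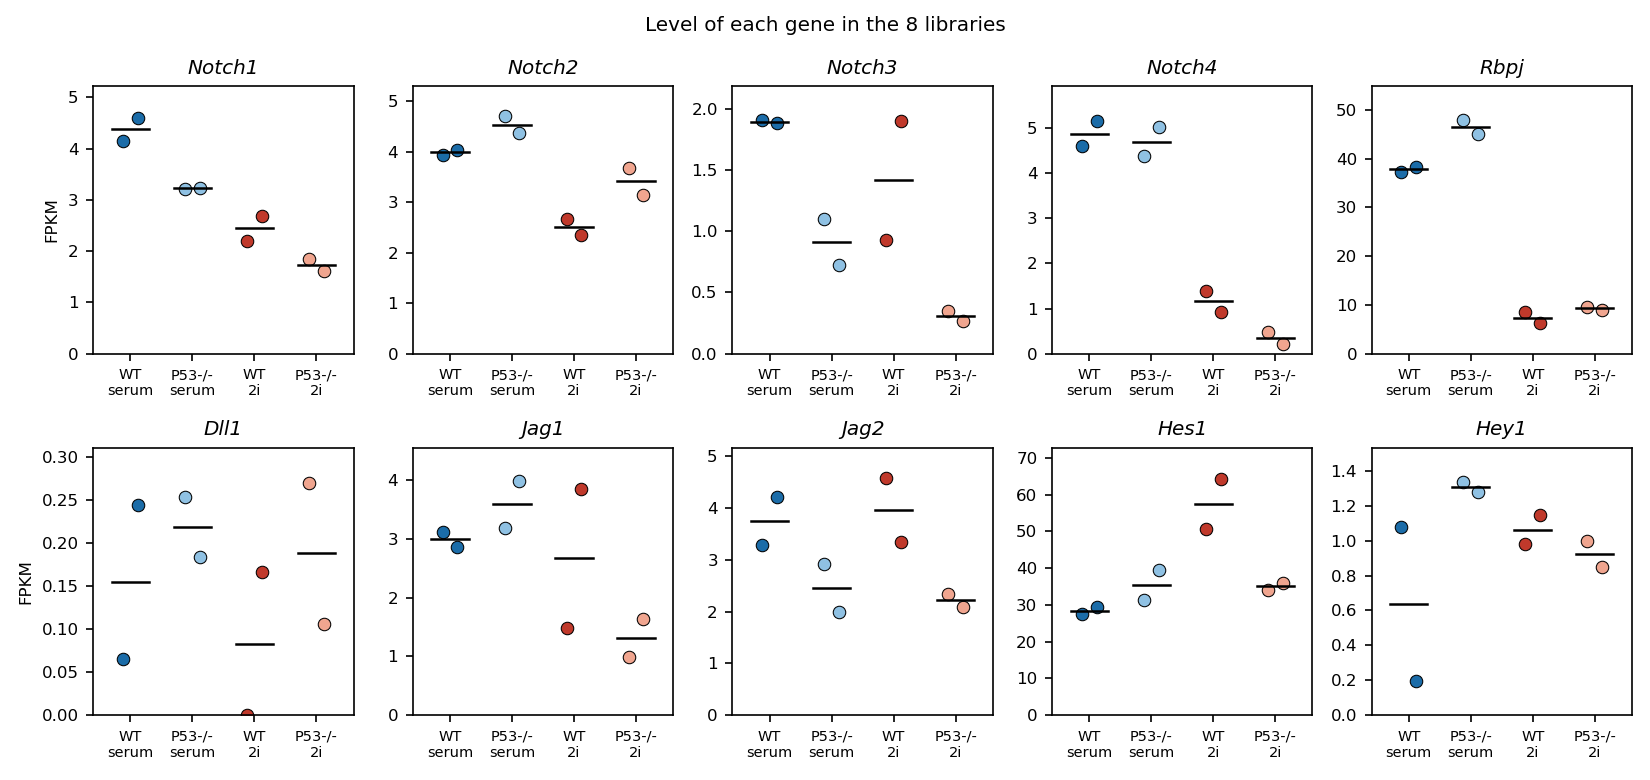
FPKM (y axis, from 0, a scale of its own for each gene) of the 10 genes in the 4 groups, with 1 point per library and a line at the mean of 2. *Rbpj* and *Notch4* separate serum from 2i, *Hes1* is highest in both WT 2i libraries, and *Dll1* stays under 0.3 FPKM.

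In WT cells, *Rbpj* and 3 of the 4 receptors were lower in 2i than in serum, while *Hes1* was higher. Called were 5 of the 9 members tested (55.6%), 4 lower and 1 higher, and 55.7% of all genes tested were called in this contrast, 27.2% as higher and 28.6% as lower. The share of members called was thus near that of all genes. In bulk samples of this kind, fewer cells with a transcript and less of it per cell cannot be told apart.

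*Rbpj* encodes the factor through which all 4 receptors act. It had 37.3 and 38.3 FPKM for WT in serum and 47.8 and 45.1 for P53-/- in serum, against 8.49 and 6.29 for WT in 2i and 9.50 and 9.03 for P53-/- in 2i. All 4 serum libraries lay above all 4 2i libraries, with no overlap. The log2 fold change from serum to 2i was −2.36 in WT (SE 0.16, limma adjusted p = 3.32e-05), a 5.12-fold fall, and −2.31 in P53-/- (SE 0.16, limma adjusted p = 2.97e-05), a 4.97-fold fall. These values rest on about 179 to 3191 fragments per library. Leaving out any 1 library kept the WT value between −2.57 and −2.14. Within a culture, P53-/- was 0.34 above WT in 2i (95% interval −0.02 to 0.70) and 0.30 above in serum (−0.07 to 0.66), and neither passed (limma adjusted p = 0.227 and 0.511). The fall of *Rbpj* in 2i did not differ detectably between the genotypes, with an interaction of 0.04 (95% interval −0.47 to 0.55, limma adjusted p = 0.962). Processed copies of *Rbpj* exist in the mouse genome, and how the counting divided reads among them is not given in the sources used here.

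*Rbpj* lies on the plus strand of chromosome 5, from 53466152 to 53657362 (GRCm38, GENCODE M21). It was also the 1 member whose promoter windows held the core motif of RBPJ itself, TGGGAA, or TTCCCA on the other strand. The windows were the 250 bases before each start in the RefSeq promoter table (GRCm38.p6), which has 10 windows for 8 of the 10 members and none for *Hes1* and *Hey1*. The motif was in both overlapping windows of *Rbpj* and in 21.6% of the 32851 windows in the table, and 2.77% held it more than once. The stretches are shown because *Rbpj* had the lowest p of the members in both culture contrasts. The first, chr5:53590096-53590213 on the plus strand, ends where the first exon of a GENCODE transcript begins and starts 250 bases before the RefSeq start. The second, chr5:53590269-53590298, holds the motif that begins 65 bases before that RefSeq start, and it lies past the start of that exon. Both stretches lie inside the GENCODE span of *Rbpj*, so they are upstream of an internal start only. Capitals mark the motif:
Rbpj upstream: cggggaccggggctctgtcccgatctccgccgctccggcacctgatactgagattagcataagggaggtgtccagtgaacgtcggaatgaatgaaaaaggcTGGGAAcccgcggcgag
Rbpj second motif: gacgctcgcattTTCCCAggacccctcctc
These are matches of letters, and binding was not measured in these libraries.

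The receptor transcripts summed to 14.6 and 15.7 FPKM for WT in serum, 13.4 and 13.3 for P53-/- in serum, 7.17 and 7.86 for WT in 2i, and 6.36 and 5.23 for P53-/- in 2i. The sum was therefore higher in each serum library than in any 2i library. Its makeup differed too. *Notch4* made up 31.6% to 37.6% of the sum in serum libraries, 19.4% and 11.8% for WT in 2i, and 7.63% and 4.13% for P53-/- in 2i, where *Notch2* made up 57.9% and 60.1%.

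**Figure D2:**
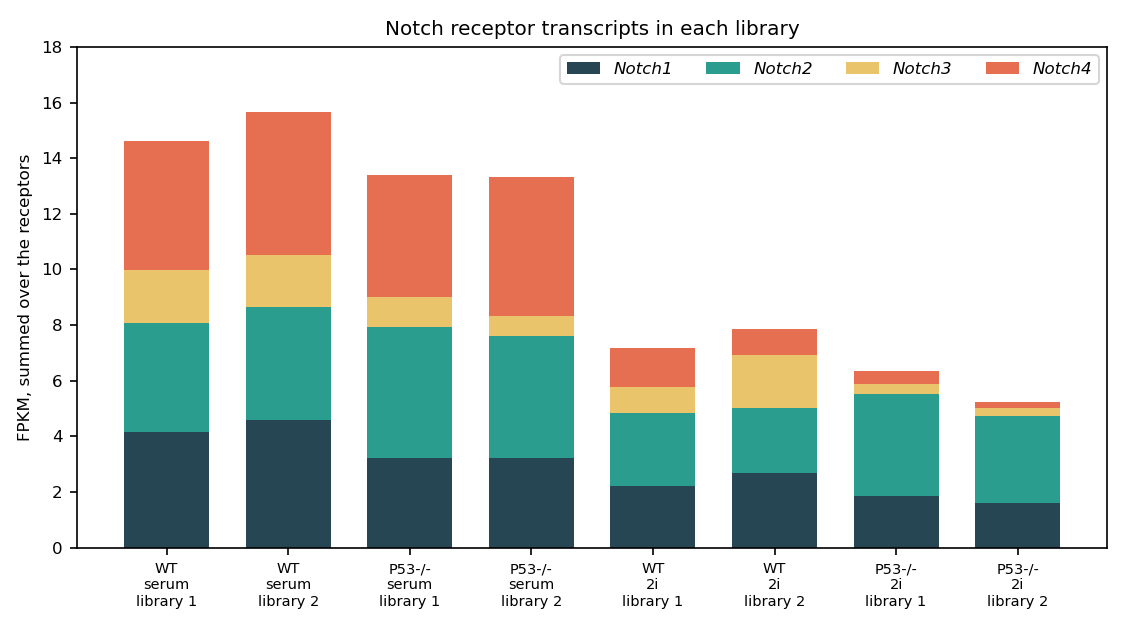
FPKM of the 4 Notch receptors stacked for each of the 8 libraries (y axis, summed FPKM, 1 bar per library, colors for the receptors). The serum bars reach 13.3 to 15.7 FPKM and the 2i bars 5.23 to 7.86, and the part of *Notch4* shrinks most.

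*Notch4*, a receptor best known from the endothelium, had 4.61 and 5.16 FPKM for WT in serum, 4.39 and 5.02 for P53-/- in serum, 1.39 and 0.925 for WT in 2i, and 0.485 and 0.216 for P53-/- in 2i. The serum groups overlapped each other, both 2i groups lay below them, and the P53-/- 2i libraries were the lowest. From serum to 2i it fell 4.03-fold in WT (log2 −2.01, SE 0.34, limma adjusted p = 0.00168) and 11.2-fold in P53-/- (−3.48, SE 0.34, limma adjusted p = 0.000116). The fold changes depend on the pseudocount at these levels, and adding 1 FPKM instead of 0.1 gave −1.45 for WT and −2.09 for P53-/-. In P53-/- 2i the values stand for about 30.9 and 7.73 fragments.

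*Notch4* lies on the plus strand of chromosome 17, from 34564268 to 34588503 (GRCm38). Its upstream stretch, chr17:34564045-34564267, up to the first GENCODE exon, is shown for contrast with that of *Rbpj*, since the 2 genes had the widest range of group means among the members (3.53 for *Notch4* and 2.65 for *Rbpj* on the log2 scale). It holds no TGGGAA or TTCCCA and so has no capitals:
Notch4 upstream: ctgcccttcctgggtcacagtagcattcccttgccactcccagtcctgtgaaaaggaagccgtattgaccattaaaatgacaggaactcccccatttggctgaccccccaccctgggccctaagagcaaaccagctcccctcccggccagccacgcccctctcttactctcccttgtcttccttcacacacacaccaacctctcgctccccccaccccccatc
Over the whole 250-base windows the observed-to-expected ratio of CG pairs was 0.226 for *Notch4*, 0.797 and 0.888 for *Rbpj*, and 0.373 at the median of all windows. The windows of the other members with an entry had ratios from 0.588 to 1.14, so that of *Notch4* was the poorest in CG pairs among them. The P53 half-site consensus was found in an *Rbpj* window and in no window of the 4 receptors, *Dll1*, *Jag1* or *Jag2*, against 7.13% of all windows.

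*Notch1*, the most studied receptor, had 4.15 and 4.6 FPKM for WT in serum, 3.22 and 3.23 for P53-/- in serum, 2.20 and 2.69 for WT in 2i, and 1.84 and 1.60 for P53-/- in 2i. The 4 groups did not overlap and stood in that order. *Notch1* fell 1.76-fold in WT 2i (log2 −0.82, SE 0.20, limma adjusted p = 0.00872) and 1.83-fold in P53-/- 2i (−0.87, SE 0.20, limma adjusted p = 0.00626). The P53-/- values were lower than WT by similar amounts in both cultures, with log2 fold changes of −0.48 in 2i (95% interval −0.94 to −0.01) and −0.43 in serum (−0.89 to 0.04), and neither passed over all genes (limma adjusted p = 0.185 and 0.476). *Notch1* (chr2:26457903-26516663, minus strand) overlaps the antisense gene *0610009E02Rik*, which had at most 0.669 FPKM. The library kit kept strand per the labels, and whether the counting used it is not given in the sources used here.

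*Notch2* (chr3:98013527-98150361, plus strand), a close relative of *Notch1*, had 3.94 and 4.04 FPKM for WT in serum, 4.70 and 4.37 for P53-/- in serum, 2.66 and 2.34 for WT in 2i, and 3.68 and 3.15 for P53-/- in 2i. It was the 1 receptor whose P53-/- libraries lay above those of WT in both cultures, without overlap. The fall in WT 2i was 1.58-fold (log2 −0.66, SE 0.18, limma adjusted p = 0.014), close to the 1.5-fold threshold, and it was missed with a pseudocount of 1 (−0.51) and without WT 2i library 2 (−0.57). In P53-/- the culture difference was −0.40 (95% interval −0.82 to 0.01, limma adjusted p = 0.0822) and did not reach the fold threshold. P53-/- against WT gave 0.43 in 2i and 0.18 in serum (limma adjusted p = 0.179 and 0.751).

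*Notch3* (chr17:32120820-32166852, minus strand), a receptor known from smooth muscle and neural progenitors, had 1.90 and 1.88 FPKM for WT in serum, 1.1 and 0.726 for P53-/- in serum, 0.926 and 1.90 for WT in 2i, and 0.347 and 0.264 for P53-/- in 2i. The P53-/- 2i libraries were the lowest of the 8, and of the WT 2i libraries 1 was at the level of WT serum and 1 within the range of P53-/- serum. The WT difference between cultures did not pass (log2 −0.48, 95% interval −1.43 to 0.47, limma adjusted p = 0.342), and it was 0.004 without WT 2i library 1 and −0.96, a call, without WT 2i library 2 (limma adjusted p = 0.0863). In P53-/- the fall in 2i was 2.46-fold (−1.30, SE 0.41, limma adjusted p = 0.0248). That call was lost with a pseudocount of 1 (−0.54) and without P53-/- serum library 1 (−1.03, limma adjusted p = 0.119).

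*Jag1* (chr2:137081456-137116644) and *Jag2* (chr12:112907819-112929776), both on the minus strand, encode the Jagged ligands. *Jag1* had 3.13 and 2.87 FPKM for WT in serum, 3.19 and 4.0 for P53-/- in serum, 1.48 and 3.86 for WT in 2i, and 0.989 and 1.63 for P53-/- in 2i. The serum groups were separated from P53-/- 2i, while the WT 2i libraries lay on either side of WT serum. In WT the culture difference was −0.31 (95% interval −1.30 to 0.69, limma adjusted p = 0.558), or 0.36 without WT 2i library 1 and −0.97, a call, without library 2 (limma adjusted p = 0.0504). In P53-/- *Jag1* fell 2.67-fold in 2i (log2 −1.42, SE 0.43, limma adjusted p = 0.021), a call that was lost without P53-/- 2i library 1 (−1.09, limma adjusted p = 0.127) or P53-/- serum library 2 (−1.26, limma adjusted p = 0.112). The WT 2i library with more *Jag1*, library 2, also had more *Notch3*, and it had less *Notch4* and *Jag2* than library 1.

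*Jag2* had 3.29 and 4.22 FPKM for WT in serum, 2.91 and 1.99 for P53-/- in serum, 4.57 and 3.34 for WT in 2i, and 2.33 and 2.10 for P53-/- in 2i. Every P53-/- library lay below every WT library, and the cultures overlapped within each genotype. The culture differences were 0.07 in WT (95% interval −0.54 to 0.67) and −0.12 in P53-/- (−0.73 to 0.49), with limma adjusted p values of 0.841 and 0.712. P53-/- against WT gave −0.79 in 2i (95% interval −1.40 to −0.19, limma adjusted p = 0.111) and −0.61 in serum (−1.22 to 0.00, limma adjusted p = 0.439). In 2i the value therefore missed the threshold of 0.1 narrowly.

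*Hes1* (chr16:30064384-30067796, plus strand), a repressor listed here as a Notch target, had 50.6 and 64.3 FPKM for WT in 2i, 34.1 and 35.9 for P53-/- in 2i, 31.3 and 39.5 for P53-/- in serum, and 27.4 and 29.3 for WT in serum. Notch activity was not measured, and whether it sets the level of *Hes1* in these cells was not tested. The WT 2i libraries stood above the other 6, and the P53-/- groups overlapped each other. *Hes1* rose 2.01-fold from serum to 2i in WT (log2 1.01, SE 0.16, limma adjusted p = 0.0012), the opposite direction to *Rbpj*, *Notch1*, *Notch2* and *Notch4*, and it was called with any library left out (0.84 to 1.18). In P53-/- the difference between cultures was −0.01 (95% interval −0.38 to 0.37, limma adjusted p = 0.976), and its sign depended on the scaling. The interaction of genotype and culture was −1.01 (95% interval −1.54 to −0.49), with an unadjusted p of 0.0023 in limma and an adjusted p of 0.169 over all genes, so it did not pass.

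*Hey1* (chr3:8663359-8667256, minus strand), a related repressor, had 1.08 and 0.197 FPKM for WT in serum, 1.34 and 1.28 for P53-/- in serum, 0.980 and 1.15 for WT in 2i, and 1.0 and 0.846 for P53-/- in 2i. WT serum library 2 stood apart from the other 7 libraries, with about 3.3 fragments. The culture difference was 0.97 in WT (95% interval −0.40 to 2.34, limma adjusted p = 0.188) and −0.47 in P53-/- (−1.83 to 0.90, limma adjusted p = 0.515). Without WT serum library 2 the WT value was −0.02, and without WT serum library 1 it was 1.97, a call (limma adjusted p = 0.00649), so that 1 library decided it.

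**Figure D3:**
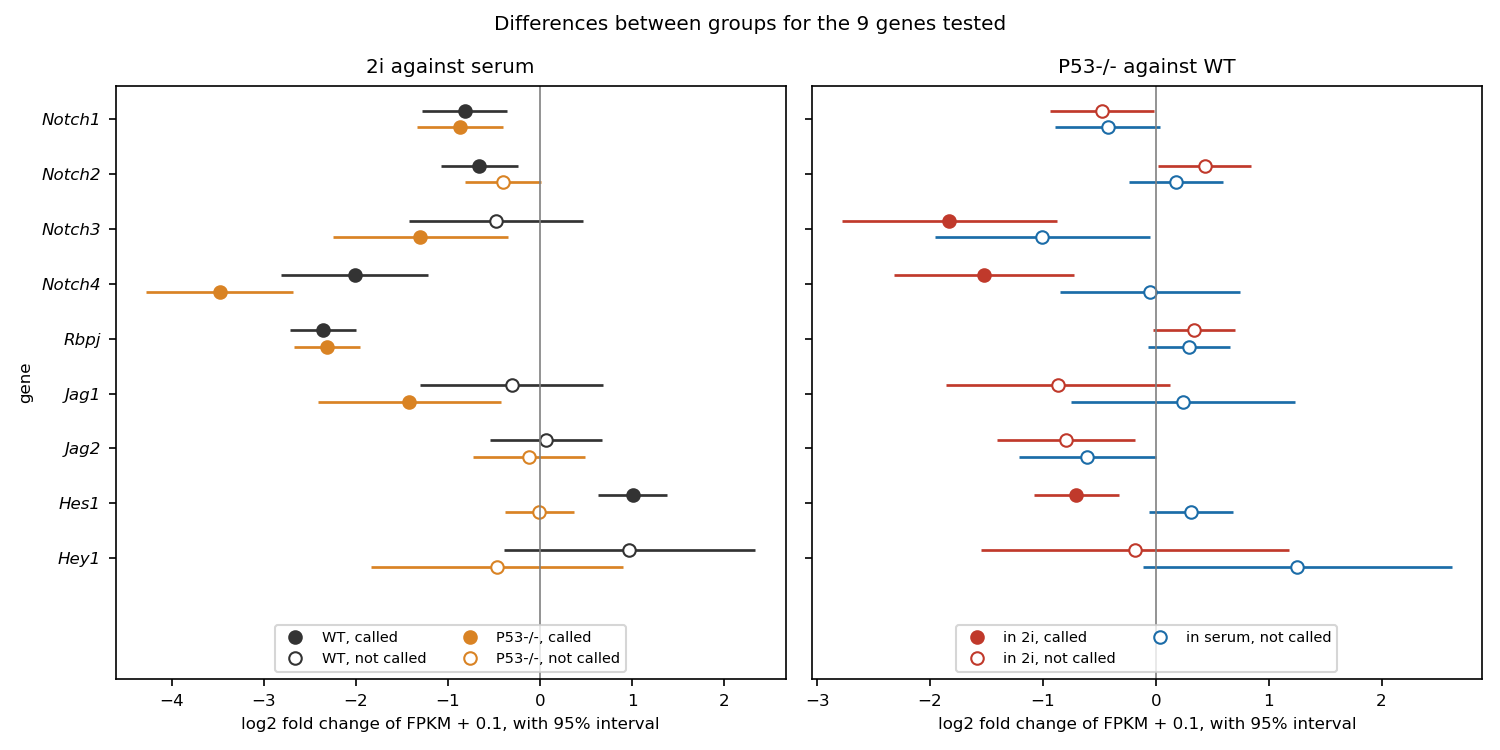
Log2 fold changes of FPKM + 0.1 (x axis) with 95% intervals from limma for the 9 members tested, 2i against serum on the left and P53-/- against WT on the right. Filled points were called. *Rbpj*, *Notch1* and *Notch4* were called lower in 2i in both genotypes, *Hes1* was called higher in WT 2i, and *Notch3*, *Notch4* and *Hes1* were called lower in P53-/- in 2i.

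Culture in P53-/- cells was compared over other libraries than in WT, but both contrasts came from 1 fit that pools the spread of all groups, so their calls are not independent. Called were 5 of 9 members (55.6%), all lower in 2i, against 58.2% of all genes tested, of which 30.1% were lower and 28.0% higher. *Notch1*, *Notch4* and *Rbpj* were called in both genotypes and in the same direction, 60.0% of the members called in each. Over all genes tested, the genes called in both in the same direction were 82.9% of those called in WT and 79.4% of those called in P53-/-. The median log2 fold change of the 9 members was −0.48 in WT and −0.87 in P53-/-, beside −0.02 and −0.03 for all genes tested.

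In 2i, *Notch3*, *Notch4* and *Hes1* were lower in P53-/- than in WT. These were 3 of the 9 members tested (33.3%). The background was 10.3% of all genes, made up of 5.97% lower and 4.36% higher. As the members were chosen with earlier results of these data known, setting these shares side by side is a description and not a test. A further 3 members, *Notch1*, *Notch2* and *Jag2*, had an unadjusted p under 0.05 in limma without passing. The comparisons of genotype in 2i use the same libraries as the culture comparisons, so the values below are not independent of those above.

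*Notch3* had the largest difference between P53-/- and WT in 2i, 3.55-fold lower, from a mean of 1.41 ± 0.688 FPKM to 0.306 ± 0.0581 FPKM (SD, n = 2 in each), with a log2 value of −1.83 (SE 0.41, limma adjusted p = 0.0412). That rank rests on WT 2i library 2, without which the value was −1.35, smaller than the −1.52 of *Notch4* over all libraries. *Notch4* fell 2.88-fold, from 1.16 ± 0.329 to 0.351 ± 0.19 FPKM (SD, n = 2 in each; −1.52, SE 0.34, limma adjusted p = 0.0425). *Hes1* fell 1.63-fold, from 57.5 ± 9.69 to 35.0 ± 1.27 FPKM (SD, n = 2 in each; −0.70, SE 0.16, limma adjusted p = 0.0442). All 3 were separated without overlap. Over the same libraries the sums of 4 marker lists were also lower in P53-/- than in WT without overlap. The trophoblast list summed to 65.8 to 67.4 FPKM in P53-/- and 77.3 to 128 in WT, the neural list to 22.5 to 27.7 and 31.8 to 34.3, the primitive endoderm list to 1.63 to 2.32 and 2.58 to 4.36, and the fibroblast list to 1.75 to 1.89 and 2.66 to 2.73. The sums rest on a few genes, mainly *Krt8*, *Tubb3*, *Gata4* and *Pdgfrb*, and some members of the same lists went the other way, such as *Krt7* (2.39 and 1.94 against 0.165 and 0.883 FPKM) and *Nes* (5.60 and 5.19 against 3.68 and 3.42). The sums of the ESC, primitive streak and endothelial lists overlapped, but some of their members were lower in P53-/- without overlap. Examples were *Klf4* (23.2 and 26.3 against 48.2 and 48.3 FPKM), *Eomes* (1.02 and 0.879 against 1.76 and 1.60) and *Tek* (0.267 and 0.475 against 1.38 and 2.35). *Dppa5a*, the largest part of the ESC sum, was higher in P53-/- (2691 and 1966 against 1945 and 1671), as was *Tbx6* (0.125 and 0.111 against 0.0758 and 0). The part of these lists in the differences was not tested. The P53-/- 2i means of *Notch3* and *Notch4* lay under 0.5 FPKM, while each of the other 3 groups had a mean over it for both genes, so that they passed the filter on low values without the 2i libraries. With a pseudocount of 1 the values of *Notch3* and *Notch4* were −0.86 and −0.68. The calls rest on the spread pooled over the 4 groups. Fitting the 4 libraries of 2i without those of serum, none of the 3 passed (limma adjusted p = 0.154, 0.187 and 0.154), while 193 genes in all did. The number of members called fell to 0 without P53-/- 2i library 2, and to 1 without P53-/- 2i library 1, WT 2i library 2 or either WT serum library. *Notch3* was not called without P53-/- 2i library 1 or 2 (limma adjusted p = 0.106 and 0.17) or WT 2i library 2 (0.113). *Notch4* was not called without P53-/- 2i library 2 (−1.08, limma adjusted p = 0.162), WT 2i library 1 (0.136), or either WT serum library (0.111 and 0.112). *Hes1* was not called without P53-/- 2i library 1 or 2, WT 2i library 2, or either WT serum library (limma adjusted p from 0.11 to 0.159). *Jag1*, with −0.87 (95% interval −1.86 to 0.13, limma adjusted p = 0.256), was called without WT 2i library 1 (−1.53). With 1 library left out its value ran from −1.53 to −0.20. *Hey1* had −0.18 (95% interval −1.55 to 1.18, limma adjusted p = 0.888).

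In serum, limma called no member between P53-/- and WT, and 1.02% of all genes were called (0.135% higher, 0.883% lower). Higher genes were 13.3% of those called, or 28.4% after small RNA genes were left out. *Notch3* was the 1 member with an unadjusted p under 0.05, with a log2 fold change of −1.0 (95% interval −1.95 to −0.06, limma adjusted p = 0.413), and its groups did not overlap. The sums of the 6 lists for other cells were separated between the same libraries too, with primitive streak, primitive endoderm and trophoblast sums lower in P53-/- (1.28 to 1.45 against 2.76 to 2.93 FPKM for primitive endoderm) and neural, fibroblast and endothelial sums higher (36.3 to 41.3 against 27.2 to 28.7 for neural). The neural sum was mainly *Tubb3*, while *Pax6* (0.362 and 0.226 against 0.618 and 0.565) and *Neurod1* (0.259 and 0.129 against 0.761 and 1.2) were lower in P53-/-, and the part of these lists in the values here was not tested. *Notch4* had −0.05 (95% interval −0.85 to 0.75, limma adjusted p = 0.978), *Hes1* 0.31 (−0.06 to 0.68, limma adjusted p = 0.507), *Jag1* 0.24 (−0.75 to 1.24, limma adjusted p = 0.871) and *Hey1* 1.25 (−0.11 to 2.62, limma adjusted p = 0.478). Both P53-/- serum libraries lay above WT for *Hes1* and *Jag1* and for *Hey1*, for which the value was 0.26 without WT serum library 2.

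Whether P53 loss acted differently in the 2 cultures was tested as an interaction. No member passed in limma, and 0.207% of all genes did (0.103% with a positive and 0.103% with a negative interaction). Positive values were 13 of these 26 calls, but 24.3% of the calls after small RNA genes were left out. *Hes1* and *Notch4* had an unadjusted p under 0.05, with interactions of −1.01 and −1.47 (SE 0.49 for *Notch4*, limma adjusted p = 0.279). For *Notch3*, lower in P53-/- in both cultures by value, the interaction was −0.82 (95% interval −2.17 to 0.52, limma adjusted p = 0.588), for *Jag1* −1.11 (−2.52 to 0.29, limma adjusted p = 0.48) and for *Hey1* −1.44 (−3.37 to 0.50, limma adjusted p = 0.503). With 1 library left out, these values ran from −1.3 to −0.34 for *Notch3*, from −1.77 to −0.45 for *Jag1* and from −2.43 to −0.44 for *Hey1*. *Notch1*, *Notch2* and *Jag2* had interactions of −0.05, 0.26 and −0.19.

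A list of 55 other genes of the pathway was described in the same way, and 42 of them passed the filter on low values. Of these *Maml2*, *Aph1b* and *Dll3* had both serum means under 0.5 FPKM and passed only through 2i, where they were high. Their levels are therefore given below in place of their tests, and they are left out of the counts of calls. Counts under alternative settings still include them. In WT, 22 of the other 39 were called between cultures (56.4%, 8 higher and 14 lower in 2i), beside the 55.7% of all genes. In P53-/- 25 of 39 were called (64.1%, 7 higher and 18 lower), beside 58.2%. The median log2 fold change over the 39 was −0.20 in WT and −0.41 in P53-/-. Of these genes 19 were called in the same direction in both genotypes, 86.4% of those called in WT and 76% of those called in P53-/-.

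Cofactors of RBPJ were among the genes lower in 2i. Of the coactivators, *Ep300* (log2 −1.99 in WT), *Crebbp* (−0.97) and *Kat2a* (−0.80), which encode histone acetyltransferases, and *Maml1* (−0.88), whose product bridges RBPJ and the receptor fragment, fell in both genotypes. Its relative *Maml2* had 0.852 and 0.967 FPKM for WT in 2i and 1.23 and 1.13 for P53-/- in 2i, and 0 to 0.0463 in the 4 serum libraries. Of the corepressors, *Cir1* (−1.98), which links RBPJ to histone deacetylases, *Spen* (−0.96), *Ncor1* (−1.16) and *Tle4* (−1.44), a partner of Hes proteins, fell in WT and in P53-/-. *L3mbtl3* rose in P53-/- (0.92, limma adjusted p = 0.0122), with 0.57 in WT. *Kat2b*, *Snw1*, *Tle1* and *Tle3*, of the same classes, were not called in either genotype.

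Among the genes for receptor cleavage, *Adam10* and *Adam17*, the proteases of the first cut, fell from serum to 2i in WT (−1.27 and −1.18) and P53-/- (−0.98 and −0.94). Of the γ-secretase subunits, *Psen2* rose in both genotypes (1.35 and 0.97), *Ncstn* was not called in either, and *Psenen* fell in P53-/- (−0.76). *Aph1b* had 1.42 to 2.21 FPKM in the 2i libraries and 0.150 to 0.386 in those of serum. It has a near-identical copy, *Aph1c*, and how reads were divided between them is not given in the sources used here. Of the enzymes that add sugars to the receptors, *Mfng* fell in both genotypes (−1.78 and −1.65), *Pofut1* rose in WT (0.80), and *Poglut1* and *Rfng* fell in P53-/- (−0.63 and −1.10).

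Ligands depend on ubiquitin ligases for their uptake. *Mib2* rose in both genotypes (1.23 and 1.21), *Neurl1a* rose in WT (0.99), and *Mib1* was not called in either. *Dll3*, a divergent ligand, had 1.27 and 1.90 FPKM for P53-/- in 2i and 0.252 to 0.342 in the 4 serum libraries, with 0.882 and 0.270 for WT in 2i. *Dll4* was at or under 0.0527 FPKM in every library.

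Regulators of receptor turnover moved both ways. *Dtx1* (1.98 in WT and 2.46 in P53-/-) and *Numbl* (1.01 and 1.08) rose in 2i, *Numb* (−0.67 and −0.74) and *Nedd4* (−0.97 and −0.82) fell, *Dtx3* rose in WT (0.73), and in P53-/- *Dtx2* rose (0.83) and *Fbxw7* fell (−1.37). *Hes6*, a Hes relative that opposes Hes1 protein, had 20.6 and 18.2 FPKM for WT in 2i and 6.24 and 5.10 for WT in serum (log2 1.76, limma adjusted p = 0.000149), with 16.0 and 13.5 for P53-/- in 2i and 2.90 and 3.59 for P53-/- in serum (2.15, limma adjusted p = 5.82e-05). The target genes *Hes5*, *Hes7*, *Hey2* and *Heyl* did not pass the filter and were at or under 0.507 FPKM. *Hes1* was thus the 1 abundant target gene examined, and *Nrarp*, a target that also restrains the receptors, had 1.60 to 3.58 FPKM and was called in no contrast.

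**Figure D4:**
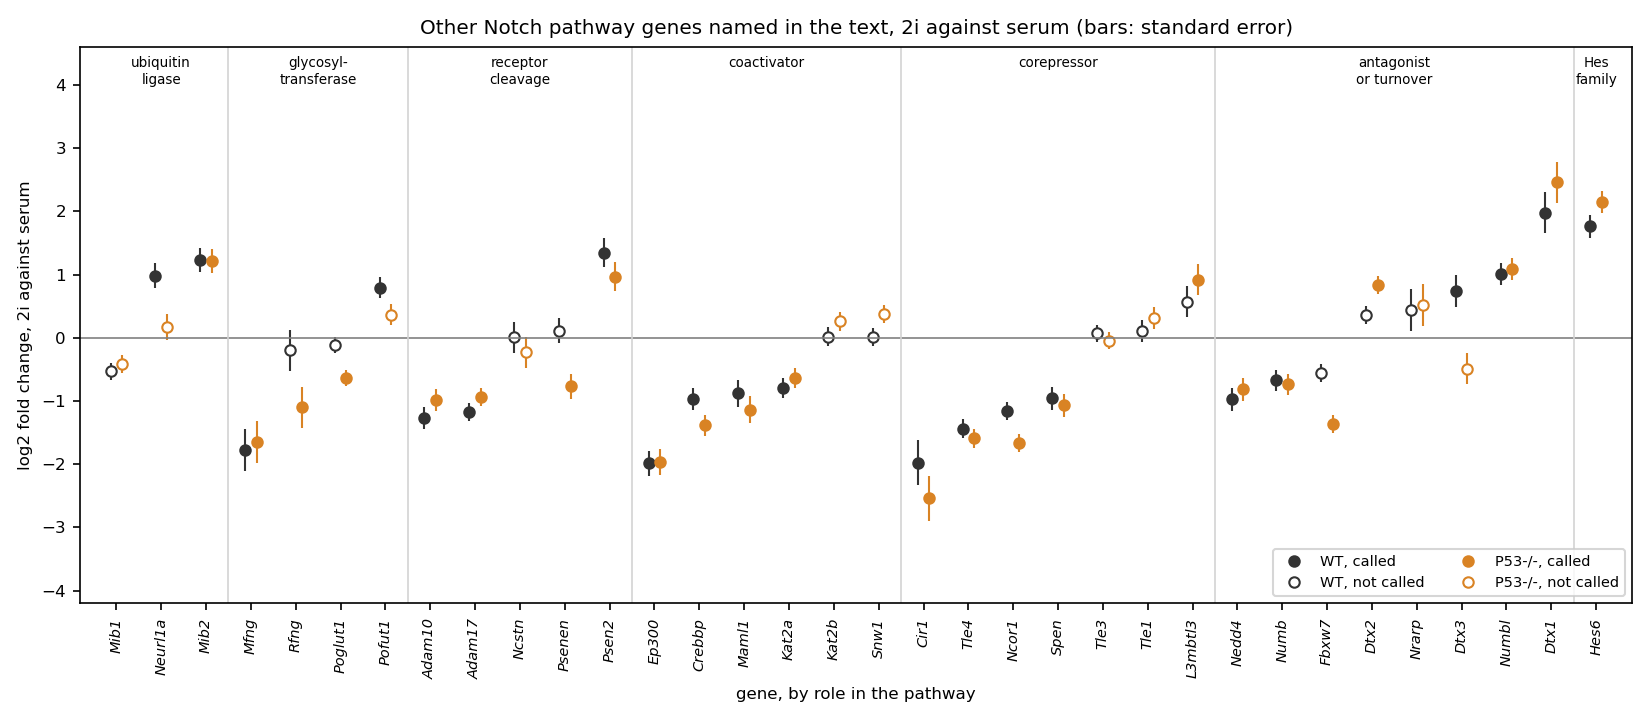
Log2 fold changes from serum to 2i (y axis, bars are standard errors) of the other pathway genes named in the text with a test, grouped by role, for WT (black) and P53-/- (orange). Filled points were called. *Ep300*, *Crebbp*, *Cir1* and *Tle4* lie below 0 in both genotypes, and *Hes6* and *Dtx1* above 0.

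Between P53-/- and WT in 2i, 5 of the 39 were called (12.8%), near the 10.3% of all genes. *Fbxw7*, which encodes a ubiquitin ligase subunit that marks the receptor fragment for degradation, fell from 10.5 and 13.3 FPKM to 6.25 and 5.87 (log2 −0.95, SE 0.14, limma adjusted p = 0.012). *Neurl1a* (−0.84, limma adjusted p = 0.0499), *Dtx3* (−0.89, limma adjusted p = 0.0757) and *Poglut1* (−0.62, limma adjusted p = 0.0331) also fell, and *Dtx2* rose from 8.29 and 7.20 to 13.5 and 12.3 FPKM (0.73, limma adjusted p = 0.0258). Of the 42 that passed the filter, none was called when the serum libraries were left out of the fit. Leaving out single libraries also changed the number called. In serum and for the interaction limma called none of the 39, with 2 and 7 at an unadjusted p under 0.05.

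Over the 8 libraries, the genes whose log2 values followed *Rbpj* most closely, among 11488 with a mean of at least 1 FPKM, were *Rad21*, a cohesin subunit (Pearson r = 0.999), *Zfp326* (r = 0.999) and *Map9* (r = 0.998). For *Notch4* they were *Fzd5*, a Wnt receptor, *Nomo1* and *Scyl3* (r = 0.993 for each). *Rad21*, for example, had 166 FPKM in both WT serum libraries and 44.3 and 33.7 for WT in 2i, and *Fzd5* had 29.1 and 30.01 for WT in serum, 17.4 and 16.7 for WT in 2i and 11.2 and 9.16 for P53-/- in 2i. These correlations are descriptions over libraries that fall into culture groups, and most genes tested were called between cultures.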

How the data were processed

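RNA-seq libraries of G1-sorted WT and P53-/- ESCs in serum and 2i were analysed, 4 groups of 2. The authors deposited FPKM values, 1 column per library and 1 line per symbol. The submitters' processing notes name STAR, Cufflinks, DESeq2 and mm9, and their roles, versions and annotation are not given in the sources used here. Columns name genotype and culture only, so libraries were numbered by column order. The P21-/- samples and their WT 2i samples (4 of 12) were not analysed here.

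No further scaling was applied to the FPKM. Genes with a mean of at least 0.5 FPKM were tested on log2(FPKM + 0.1) with limma 3.58.1 in R 4.3.3 (1 fit of 4 groups, eBayes with trend, Benjamini-Hochberg over 12572 genes). Thresholds, an adjusted p under 0.1 and a fold over 1.5, are those of the study. Between 2 groups of 2 libraries a two-sided exact permutation test cannot go below p = 0.33. Positions are from GENCODE M21 (GRCm38) and were matched by symbol. Depth was estimated from value steps of single-transcript genes, with the longest transcript as length, and gives no counting intervals. The fit was tested on simulated data of the WT culture contrast (12204 genes tested). Of 200 genes given a log2 change of 2 it called 176, each with the true sign, beside 16 false calls. That is a far smaller share of changed genes than the 55.7% called in the real WT culture contrast. Among the members only *Rbpj* and *Notch4* changed by as much in that contrast, and recovery of smaller changes was not tested.

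Members, the list of 55 other pathway genes and the marker lists were chosen with earlier results of these data known. Named genes are the 10 members, pathway genes called in a contrast, the 3 genes most correlated with the 2 members of widest range, and *Trp53*. Some uncalled pathway genes and the markers were named after their values were seen. Figures were drawn with Python 3.11.15 and matplotlib 3.10.9. Alternatives were other pseudocounts (1 and 0.01), other filters (none, or a mean of 1 FPKM), quantile normalization or median-ratio scaling, separate fits of each pair of groups, eBayes without trend, a stricter threshold (0.05), no small RNA genes, and each library left out. Some genes of the lists are not reported here by name, and the counts include them.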

Additional observations from a re-analysis of the deposited data

How the results depend on the processing

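No paired analysis was possible because the columns carry no replicate numbers. Beside the calls of single genes described with the results above, the values and counts of the members that are not given here kept their direction and side of the threshold under the alternatives run. Between P53-/- and WT in 2i, the number of members called was 0 instead of 3, and of other pathway genes 0 instead of 5, when only the 2i groups were fitted, which leaves fewer libraries to estimate the spread. With 1 library left out these numbers ran from 0 to 3 and from 2 to 7. Over all genes, the 1299 calls in 2i became 193 in that fit and 771 at an adjusted p under 0.05. With 1 library left out they ran from 491 to 1224. The 128 calls in serum became 37 and 73, and ran from 52 to 148 with 1 library left out. Without small RNA genes 1 pathway gene was called in serum. The 26 interaction calls became 66 with a pseudocount of 1, 40 without the trend, 16 at an adjusted p under 0.05 and 70 without small RNA genes, and ran from 19 to 69 with 1 library left out. The cause of the changes that fewer libraries or a stricter threshold do not account for was not tested. A lone library left in a group is assumed to vary like the other groups.

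Signs turned only for values that were not called. *Hes1* between cultures in P53-/- was 0.045 with median-ratio scaling and 0.13 with quantile normalization, and the interaction of *Notch1* was 0.009 with a pseudocount of 1. With 1 library left out, the WT culture differences ran from −0.96 to 0.004 for *Notch3*, from −0.97 to 0.36 for *Jag1*, from −0.16 to 0.29 for *Jag2* and from −0.024 to 1.97 for *Hey1*. In P53-/- they ran from −0.38 to 0.14 for *Jag2* and from −0.18 to 0.16 for *Hes1*. *Notch4* in serum ran from −0.15 to 0.041, and the interactions from −0.19 to 0.09 for *Notch1*, from −0.45 to 0.076 for *Jag2* and from −0.17 to 0.26 for *Rbpj*. No scaling moved the median of all genes by over 0.1. Low depth limits *Dll1*, *Hey1* and, in P53-/- 2i, *Notch3* and *Notch4*.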
